A study of Mus musculus with 6 samples.

Results

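Chemokines and their receptors were followed in the uterine horns of mice made to express SF1, the nuclear receptor encoded by Nr5a1. The members were taken by gene name. They were all genes of the Ccl, Cxcl, Xcl, Ccr, Cxcr, Xcr and Ackr families plus Cx3cl1 and Cx3cr1 that had a probe set with that symbol alone. Cxcl1, Cxcl2, Cxcl5 and Cxcl15 were left out by the rule. This gave 49 genes of 18193 on the array: 29 ligands, 16 receptors that signal through G proteins and 4 atypical receptors. Each gene was represented by the probe set with its highest mean log2 value over the 6 arrays.

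The study compared 3 arrays of control uteri (genotype SF1LsL/+) with 3 arrays of SF1 uteri (genotype Pgrcre/+ SF1LsL/+), all of strain C57BL6J. Both groups carried the SF1LsL transgene, and the SF1 group alone carried Cre at the Pgr locus, so that the transgene is switched on, by design, in cells that express the progesterone receptor. Each array held RNA pooled from 2 mice, the cervix was left out, and tissue was taken 2 weeks after a surgery of a kind not given in the sources used here; nor are the animals' age and hormonal state. Cre at this locus acts wherever Pgr is expressed, in the uterus or elsewhere, and the Cre allele, the Pgr dose and SF1 differed between the groups together.

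Chemokines are small secreted proteins that guide leukocytes along a gradient. Inflammatory members are switched on by interferons, NF-kappaB or type 2 cytokines, and homeostatic members place lymphocytes in tissues. They act on receptors that couple to inhibitory G proteins, while atypical receptors bind and remove chemokines without that signal. In the uterus they are known for drawing macrophages, eosinophils and neutrophils in over the estrous cycle, and in the decidua stromal Cxcl9, Cxcl10 and Ccl5 are known to be silenced so that T cells are kept away from the fetus.

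Median intensities lay between 149.9 and 162.2 on the 6 arrays, and correlations of log2 values between arrays lay between 0.9875 and 0.9941 within a group and between 0.9648 and 0.9789 across groups. Every marker of uterine epithelium, endometrial stroma and smooth muscle read at least 236 on every array. Nr5a1 itself read 139, 172 and 145 in control and 151, 151 and 151 in SF1 (limma adjusted p = 0.992), and whether its probe set lies within the transgene is unknown, so it is no check of the labels. Pgr read 4744 to 4899 in control and 1720 to 2027 in SF1 (log2 difference -1.34, adjusted p = 3.2e-05). RNA quality was read from the 3' to 5' signal ratio of beta-actin, which in control averaged 2.508 ± 0.107 and in SF1 averaged 2.194 ± 0.123 (SD, n = 3). A two-sided exact permutation test gave p = 0.1, the smallest that 3 against 3 arrays allow. For Gapdh this ratio averaged 1.624 ± 0.0877 and 1.541 ± 0.104 (p = 0.3 by the exact permutation test). The part of RNA quality in the results was not tested.

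Of the 49 genes, 15 rose in SF1 uteri and 0 fell (adjusted p under 0.05 in a limma fit of all 45037 probe sets, 3 arrays per group). Over all genes measured, 8.37% rose and 8.11% fell, so that 50.8% of calls were higher; after median centring of the arrays 62.8% were. At an unadjusted p under 0.05, 20 members were higher and 0 lower on these probe sets, against 13.6% and 18.4% of all genes. The rises were more frequent among ligands, with 12 of 29, than among receptors and atypical receptors, with 3 of 20; that difference between the kinds of gene was not tested. Of the 15 risen genes, 9 rose at least 2-fold, which 2.06% of all genes did. The median log2 difference of the members was 0.24, against -0.05 over all genes. The groups did not overlap for 24 members that were higher and 1 that was lower in SF1, against 16.2% and 23.7% of all genes. Without SF1 replicate 2, which stood apart for some members, 14 members rose, against 6.5% of all genes. These were not all the same genes: Cxcl13, Xcl1 and Ccr7 lost their calls, and Ccr1 and Ccl20 became called. In whole uterine tissue, more cells of a type and more RNA per cell cannot be told apart.

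**Figure D1:**
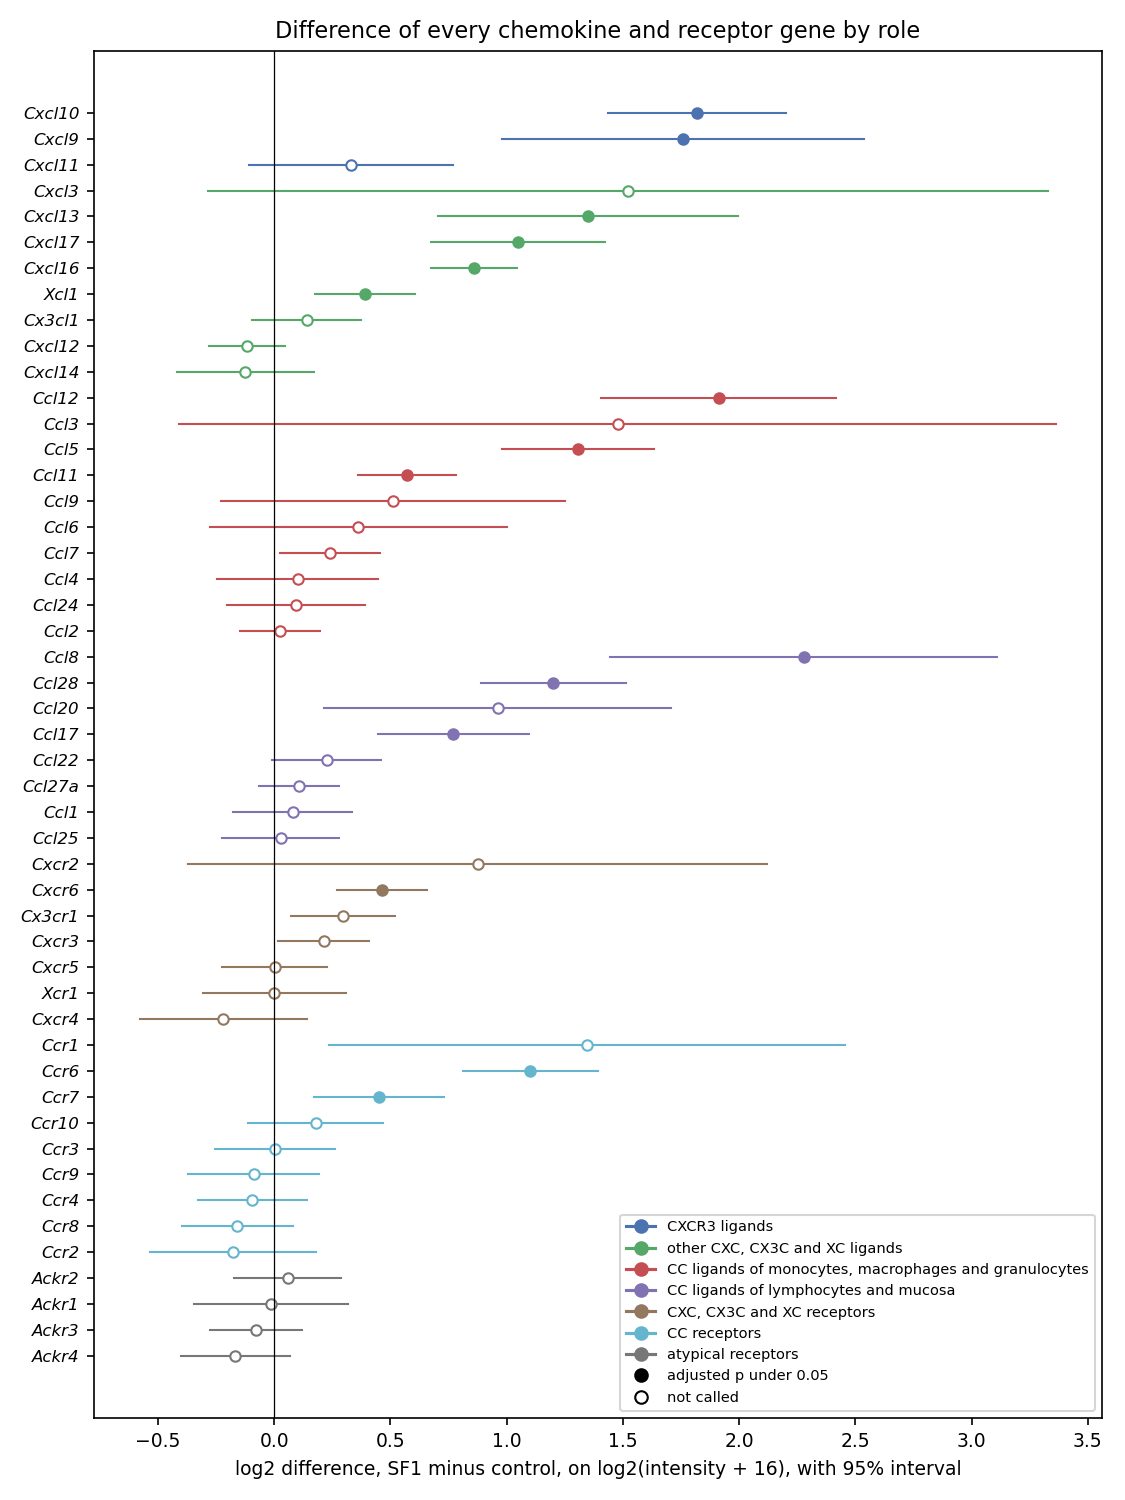
Log2 difference (SF1 minus control, on the log2(intensity + 16) scale) of each of the 49 genes with its 95% interval from limma, grouped and coloured by role; filled points have an adjusted p under 0.05. All 15 filled points lie to the right of 0, and the widest intervals are those of Ccl3, Cxcl3, Cxcr2, Ccr1 and Ccl8.

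Cxcl9 and Cxcl10, interferon-induced ligands of Cxcr3 on activated T cells and natural killer cells, were among the largest rises. Cxcl10 read 65.5, 67.9 and 64.4 on the control arrays and 372, 214 and 254 on the SF1 arrays, here and below in the order of their replicate numbers. The control arrays lay close together, and the lowest SF1 array was above all of them. The log2 difference was 1.82 ± 0.17 (SE; limma adjusted p = 0.00021). Cxcl9 read 90.0, 104 and 90.3 in control and 568, 177 and 447 in SF1 (1.76 ± 0.34, adjusted p = 0.011; 0.067, and so not called, with limma's trend and robust options). The groups did not overlap, but SF1 replicate 2 read far below both other SF1 arrays. Without that replicate the log2 difference of Cxcl9 was 2.23 (adjusted p = 6.8e-05). The other, dimmer Cxcl9 probe set differed by 0.32 and missed the threshold (adjusted p = 0.052). Cxcl11, the third ligand of this receptor, read 16.2 to 41.8 in control and 34.3 to 45.4 in SF1, and was not called (0.33, 95% interval -0.11 to 0.77); the RefSeq table lists it as a transcribed pseudogene in this strain's genome. Cxcr3 itself read 263, 303 and 300.5 in control and 355, 333 and 323 in SF1. These groups did not overlap, yet the difference of 0.21 (95% interval 0.02 to 0.41) was not called (adjusted p = 0.14).

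The 250 bases before the start sites of this pair of ligands (RefSeq, GRCm38.p6) show how their upstream sequences differ. Capitals mark letters that match a searched motif. Cxcl10 holds the interferon-response motif (GAAA, any 2 bases, GAAA) at bases -213 to -204, counted back from the start site, and Cxcl9 holds TATAAA at -195 to -190 and no match to the other 5 motifs searched.
Cxcl10, chr5:92348890-92349139, minus strand: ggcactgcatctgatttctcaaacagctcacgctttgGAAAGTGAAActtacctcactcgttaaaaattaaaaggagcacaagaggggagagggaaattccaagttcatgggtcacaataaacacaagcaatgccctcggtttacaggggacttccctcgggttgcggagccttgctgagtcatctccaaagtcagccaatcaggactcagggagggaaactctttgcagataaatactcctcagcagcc
Cxcl9, chr5:92328080-92328329, minus strand: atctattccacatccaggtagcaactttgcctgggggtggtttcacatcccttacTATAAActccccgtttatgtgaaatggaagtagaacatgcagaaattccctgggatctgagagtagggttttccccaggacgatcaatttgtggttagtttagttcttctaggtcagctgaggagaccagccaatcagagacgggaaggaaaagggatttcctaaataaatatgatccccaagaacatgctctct
On chromosome 5 the genes lie in the order Cxcl9, Cxcl10 and Cxcl11, with 1 other protein-coding gene between the first pair.

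Ccl8 and Ccl12, a neighbouring pair of genes on chromosome 11, had the highest log2 differences of all members. Ccl8, in mice a ligand of Ccr8, read 108, 137 and 190.2 in control and 1464, 558 and 510.3 in SF1. All SF1 arrays lay above all control arrays, and replicate 1 read highest by far. The log2 difference was 2.28 ± 0.36 (SE; limma adjusted p = 0.0042). Ccl12, a monocyte chemokine that acts on Ccr2, read 48.2, 45.3 and 36.8 in control and 317, 178 and 155 in SF1 (1.91 ± 0.22, adjusted p = 0.00072). SF1 replicate 1 again read highest, as it did for Cxcl9 and Cxcl10. Ccl11, the eosinophil chemokine eotaxin, read 149.9, 172 and 176 in control and 239, 277 and 248 in SF1 (0.57 ± 0.09, adjusted p = 0.0043). It lies directly before Ccl12.

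The remaining genes of that row differed little. In chromosome order the row runs Ccl2, Ccl7, Ccl11, Ccl12, Ccl8 and Ccl1. Ccl2, the monocyte chemokine at its start, read 254 to 269 in control and 258 to 280.2 in SF1 (log2 difference 0.02, 95% interval -0.15 to 0.20). Ccl7, its neighbour and also a Ccr2 ligand, read 78.4 to 93.9 and 97.3 to 115 (0.24, adjusted p = 0.13). Ccl1, a Ccr8 ligand at the far end, had a difference of 0.08 (95% interval -0.18 to 0.34). Ccl2, Ccl7 and Ccl1 are named for their place, after their values had been seen.

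The upstream sequences of the risen neighbours Ccl12 and Ccl8 both hold TATAAA close to the start site, at bases -31 to -26 in Ccl12 and -32 to -27 in Ccl8. Neither holds a match to the other 5 motifs.
Ccl12, chr11:82101595-82101844, plus strand: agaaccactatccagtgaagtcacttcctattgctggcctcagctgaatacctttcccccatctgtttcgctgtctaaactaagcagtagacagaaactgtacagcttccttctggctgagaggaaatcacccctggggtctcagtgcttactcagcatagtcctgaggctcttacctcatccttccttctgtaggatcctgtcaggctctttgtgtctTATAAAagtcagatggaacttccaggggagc
Ccl8, chr11:82114935-82115184, plus strand: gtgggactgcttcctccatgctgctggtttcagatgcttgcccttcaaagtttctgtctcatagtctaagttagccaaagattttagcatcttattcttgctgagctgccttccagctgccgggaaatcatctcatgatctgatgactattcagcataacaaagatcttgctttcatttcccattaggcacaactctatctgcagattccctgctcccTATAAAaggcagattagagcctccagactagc
TATAAA occurs within the 250 upstream bases of 12.4% of the 32851 promoters in the RefSeq table.

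A second row on chromosome 11 runs Ccl5, Ccl9, Ccl6, Ccl3 and Ccl4, and only Ccl5 of these 5 was called. Ccl5, a chemokine that T cells and natural killer cells secrete and that acts on Ccr1 and Ccr3, read 212, 236 and 329 in control. In SF1 it read 671, 669 and 621, so the SF1 arrays lay close together and above every control array. The log2 difference was 1.31 ± 0.14 (SE; limma adjusted p = 0.00055). Ccl6, a macrophage chemokine, read 954, 611 and 1134 in control and 896, 1708 and 926 in SF1, and the groups overlapped (0.36, 95% interval -0.28 to 1.00). Ccl9, a related Ccr1 ligand, ran the same way, with 203 to 461 in control and 384 to 749 in SF1 (0.51, adjusted p = 0.33). Both read lowest in control replicate 2 and highest in SF1 replicate 2. Ccl4, a ligand of macrophages and T cells, differed by 0.10 (95% interval -0.25 to 0.45).

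**Figure D2:**
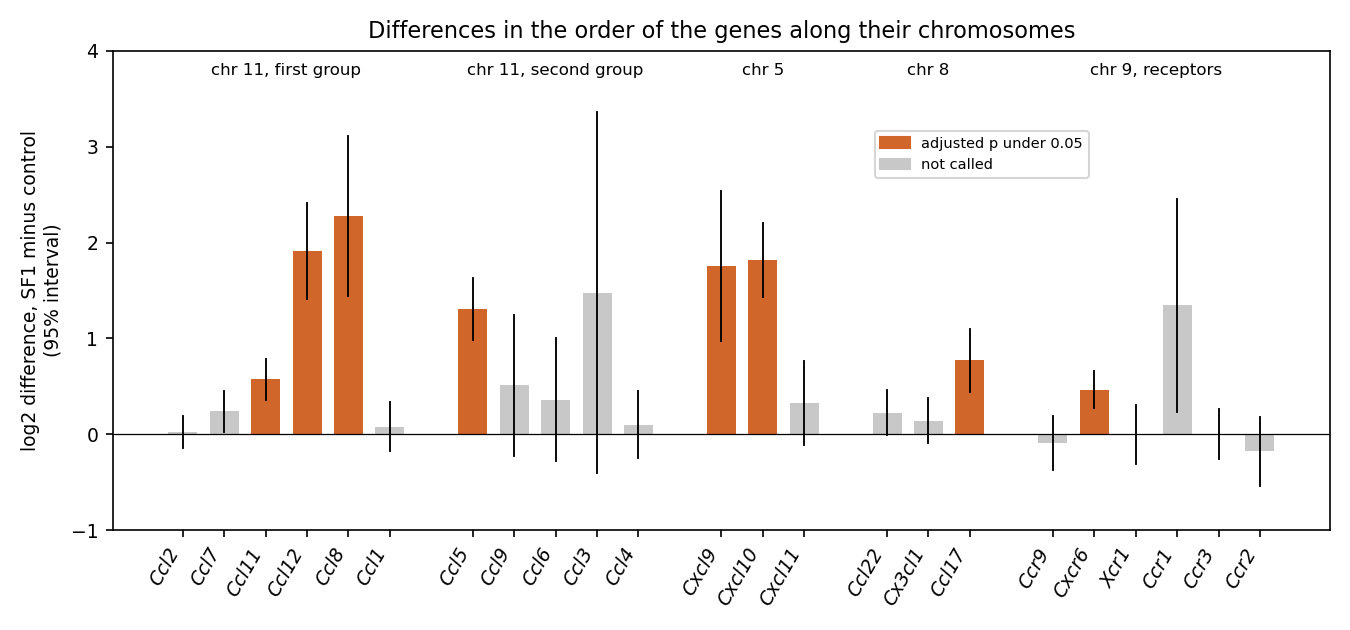
Log2 difference (SF1 minus control) of members in 5 rows of neighbouring genes, in their order along chromosomes 11, 5, 8 and 9 (order from RefSeq GRCm38.p6, not to scale); bars start at 0, lines are 95% intervals and orange bars have an adjusted p under 0.05. In each of the 5 rows plotted, called and uncalled genes stand next to each other, as Ccl8 (2.28) does beside Ccl1 (0.08).

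Ccl28 and Cxcl17, both known from mucosal epithelium, rose, while other chemokines that epithelium makes, among them Ccl20, Ccl25, Ccl27a and Cxcl14, were not called. Ccl28, which epithelial cells secrete and which acts on Ccr10 and Ccr3, read 603, 632 and 490.4 in control and 1574, 1139 and 1325 in SF1. Every SF1 array was above every control array (1.20 ± 0.14, SE; limma adjusted p = 0.00067). A second, dimmer Ccl28 probe set also rose (0.41, adjusted p = 0.012), and the third differed by 0.14 and was not called. Cxcl17, a mucosal CXC chemokine, read 291, 242 and 224 in control and 532, 425 and 682 in SF1 (1.05 ± 0.16, adjusted p = 0.0038). SF1 replicate 2 read lowest of the SF1 arrays for both genes. Markers of uterine epithelium also moved: 4 of 10 rose and 1 fell, 2 rose without SF1 replicate 1, and their summed intensity was 17666 to 18683 in control and 20501 to 22575 in SF1. Their part in the rise of these genes was not tested.

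Cxcl16, which is made as a transmembrane protein and attracts cells bearing Cxcr6, read 413, 447 and 428 in control and 739, 807 and 832 in SF1. The spread within each group was small against the gap between them (0.86 ± 0.08, SE; limma adjusted p = 0.00023). Its other probe set rose by 1.46, from 225 to 278 in control to 696 to 749.6 in SF1. Cxcr6, its receptor on T cells and innate lymphoid cells, was the called partner in the only called ligand and receptor pair. That holds for the brightest probe set of each gene, over 29 pairs with both genes measured. Cxcr6 read 259.6, 272 and 272 in control and 344, 406 and 381 in SF1 (0.46 ± 0.08, adjusted p = 0.0079). On its dimmer probe set the rise was larger, from 62.8, 72.1 and 89.9 to 332, 302 and 277 (1.82, adjusted p = 3.9e-05). The size of the Cxcr6 difference therefore depends on the probe set, while its direction does not.

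Ccl17, a ligand of Ccr4 on T helper 2 and regulatory T cells, read 108, 126 and 151 in control and 194, 225 and 272 in SF1 (0.77 ± 0.14, SE; limma adjusted p = 0.0083). The groups did not overlap. Its neighbours on chromosome 8, Ccl22 and Cx3cl1, differed by 0.23 (adjusted p = 0.18) and 0.14 (adjusted p = 0.39). Ccl22 is the other Ccr4 ligand, and Cx3cl1 is a membrane-bound chemokine for monocytes and natural killer cells. The Ccl17 upstream sequence is shown because it holds both STAT-type motifs searched, TTC and GAA with 4 bases between, which STAT6 is known to bind, at bases -154 to -145 and TTCNNNGAA at -99 to -91.
Ccl17, chr8:94810203-94810452, plus strand: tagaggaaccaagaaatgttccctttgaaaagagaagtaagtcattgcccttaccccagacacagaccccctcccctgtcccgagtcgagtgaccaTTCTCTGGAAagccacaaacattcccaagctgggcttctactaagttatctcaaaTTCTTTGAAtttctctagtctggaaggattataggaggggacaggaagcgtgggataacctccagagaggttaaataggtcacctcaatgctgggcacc
Among the 10 called members with an upstream sequence, Ccl17 was the only match to the STAT6 motif.

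Cxcl13, which draws B cells through Cxcr5, read 145, 57.6 and 116 in control and 206, 346 and 306 in SF1. The SF1 arrays were above all control arrays, but both groups were spread out (1.35 ± 0.28, SE; limma adjusted p = 0.015). The call was lost without SF1 replicate 2 (1.20, adjusted p = 0.058) or SF1 replicate 3 (1.29, adjusted p = 0.053), and the second probe set differed by 0.29 and was not called (adjusted p = 0.17). Cxcr5 read 44.6 to 51.1 in control and 45.0 to 57.5 in SF1 (0.00, 95% interval -0.22 to 0.23). Xcl1, a chemokine of natural killer and CD8 T cells, read 303, 372 and 354 in control and 430.4, 459 and 471 in SF1 (0.39 ± 0.09, adjusted p = 0.027). Its call was lost, at adjusted p between 0.054 and 0.086, in each fit that left out an array except the fit without control replicate 2. Xcr1, its receptor on cross-presenting dendritic cells, had a difference of 0.00 (95% interval -0.31 to 0.31).

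**Figure D3:**
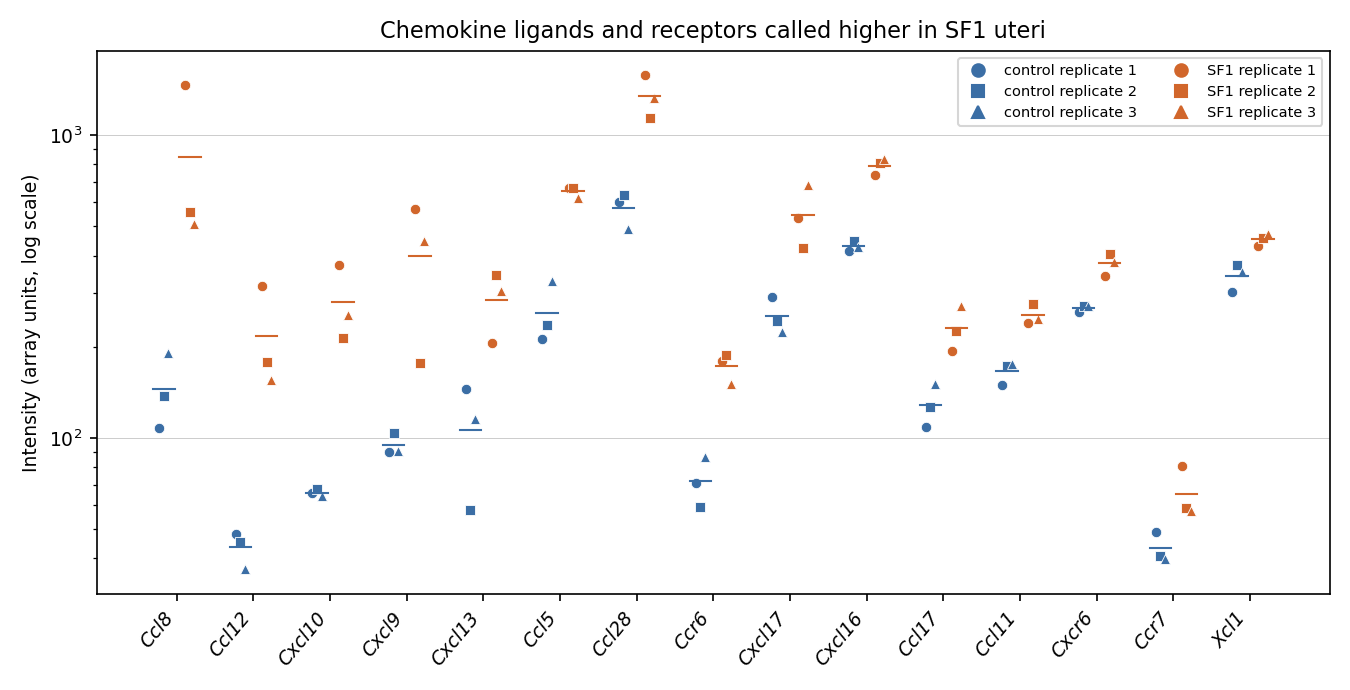
Intensity on each array (log axis) of the 15 called members; blue marks are control and orange marks SF1 arrays, the marker shape gives the replicate and the short lines are group means. Every orange mark lies above every blue mark of its gene, and SF1 replicate 1 (circle) is the highest SF1 array for Ccl8, Ccl12, Cxcl10 and Cxcl9.

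Besides Cxcr6, the receptors Ccr6 and Ccr7 were called. Ccr6, the receptor for Ccl20 on T helper 17 cells, B cells and some dendritic cells, read 71.1, 59.2 and 86.2 in control and 179, 188 and 151 in SF1. The groups stood well apart (1.10 ± 0.13, SE; limma adjusted p = 0.00071). Ccr7, which leads T cells and dendritic cells to lymph nodes, read 49.0, 40.8 and 39.8 in control and 80.4, 58.4 and 57.1 in SF1 (0.45 ± 0.12, adjusted p = 0.043). Its call was lost in all 6 fits that left out an array (adjusted p between 0.053 and 0.11).

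The receptors of most risen ligands were not called. Of the 29 measured pairs, 13 had a called ligand and 2 a called receptor on the brightest probe set of each gene. Ccr8 read 26.7 to 38.9 in control and 25.5 to 27.3 in SF1, at the dim end of the array (-0.16, 95% interval -0.40 to 0.08). Ccr3, the eosinophil receptor for Ccl11, read 14.6 to 22.4 and 15.3 to 21.8. Ccr4 differed by -0.09 (95% interval -0.33 to 0.14) and Ccr10 by 0.18 (95% interval -0.11 to 0.47). The files give no detection call, so at such low readings, which Ccr7 and the control arrays of Ccl12 share, signal cannot be told from background. The control arrays of Cxcl10 (64.4 to 67.9) and Ccr6 (59.2 to 86.2) and control replicate 2 of Cxcl13 (57.6) were also dim. The size of their differences shares that limit.

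Ccr2, the monocyte receptor for Ccl12, gave different answers on its probe sets. The brightest read 334, 386 and 272 in control and 235, 344 and 295 in SF1, with overlap and no call (-0.18, adjusted p = 0.48). The next brightest read 123, 138 and 151 in control and 261, 329 and 193 in SF1, without overlap, and rose by 0.83 ± 0.17 (SE; limma adjusted p = 0.013). The other probe sets differed by 0.33 (adjusted p = 0.073) and 0.03. Which of these reports the Ccr2 transcript is not known here, so no direction is given for Ccr2. Cx3cr1, the receptor of resident macrophages and patrolling monocytes, read 468 to 493 in control and 524 to 667 in SF1 (0.30, adjusted p = 0.080), while its other probe set differed by -0.15 (adjusted p = 0.29).

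A different pattern held for 5 members whose SF1 replicate 2 read at least 2-fold above every other array. They were Ccl3, Cxcl3, Ccr1, Cxcr2 and Ccl20, 10.2% of the members, against 0.412% of all genes. They also were the 5 uncalled members with the largest differences. Ccl3, a chemokine for macrophages and neutrophils, read 48.4, 48.3 and 39.1 in control and 55.1, 884 and 61.1 in SF1. Cxcl3, a neutrophil chemokine that acts on Cxcr2, read 23.8, 28.5 and 28.5 in control and 37.0, 592 and 41.9 in SF1. In both genes, SF1 replicate 2 was more than 14 times as bright as the next array. Ccr1, a receptor of monocytes and neutrophils, read 59.7, 50.4 and 53.1 in control and 99.2, 456 and 88.7 in SF1. Cxcr2, the main neutrophil chemokine receptor, read 19.1, 37.8 and 46.8 in control and 54.4, 228 and 26.4 in SF1. Only for Cxcr2 did the groups overlap. Ccl20, the Ccr6 ligand that epithelium makes, read 111, 122 and 130.2 in control and 168, 488 and 188 in SF1.

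Left in, SF1 replicate 2 gave these genes log2 differences of 0.88 to 1.52 with wide errors, and none was called. Without it, Ccr1 rose by 0.64 ± 0.10 (SE; limma adjusted p = 0.0074) and Ccl20 by 0.50 ± 0.10 (adjusted p = 0.023). The differences without it were 0.37 for Cxcl3 (adjusted p = 0.060), 0.28 for Ccl3 (0.15) and 0.15 for Cxcr2 (0.76). Some neutrophil markers moved with that array. The summed intensity of 8 neutrophil markers was 23116 in SF1 replicate 2, against 627 to 1249 in control and 807 and 1073 in the other SF1 arrays. S100a8 and S100a9, the calcium-binding proteins of neutrophil cytosol, read 11518 and 9468 there, which was most of that sum. Csf3r, the neutrophil growth factor receptor, read 564 there and 116 to 169 on the other 5 arrays. Mmp8, Ngp and Camp, also on that list, read 606, 532 and 277 there. On the other 5 arrays they read 29.3 to 34.6, 73.4 to 149 and 120 to 188. Mpo (70.4 to 98.2) and Elane (42.6 to 71.8), granule genes of immature neutrophils, stayed low on all 6. The part of these cells in the readings of the 5 members was not tested.

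**Figure D4:**
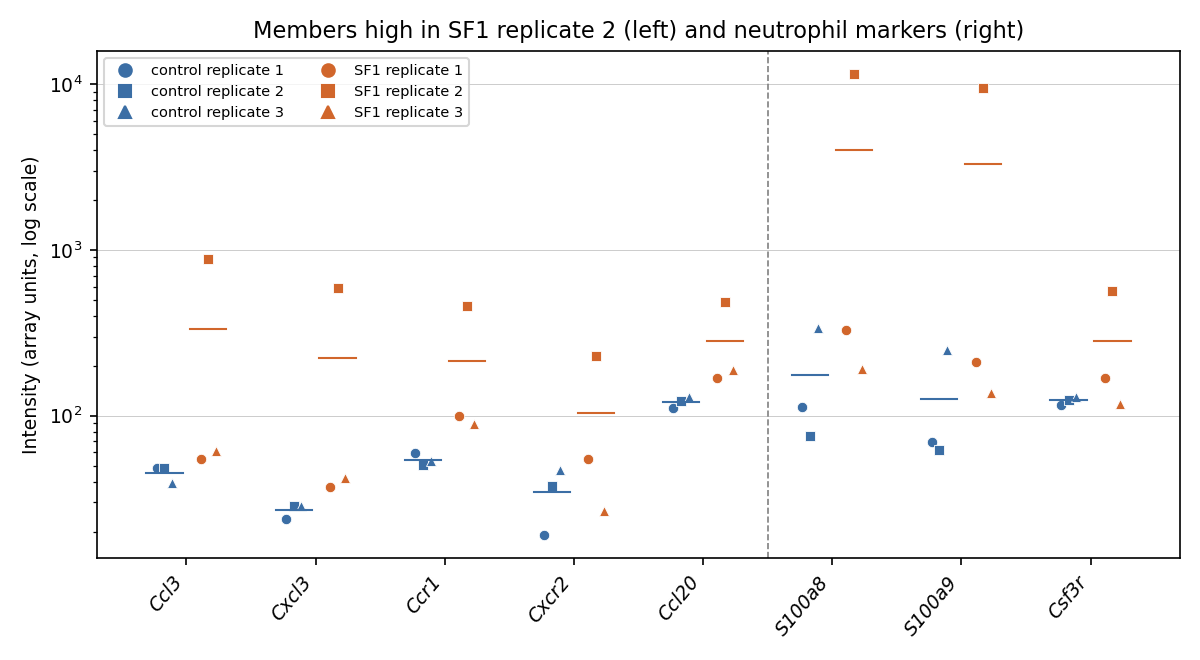
Intensity on each array (log axis) of the 5 members that read highest in SF1 replicate 2 (left of the dashed line) and of the neutrophil markers S100a8, S100a9 and Csf3r (right); marks as in the plot of called members, short lines are group means. The orange square, SF1 replicate 2, stands above all other marks of each gene, and the other SF1 arrays lie far below it.

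The Cxcl3 upstream sequence is shown for its match to the NF-kappaB motif as searched here (GGGA, any base, TTTCC). The match lies at bases -73 to -64, ahead of TATAAA at -30 to -25. Among the 37 members with an upstream sequence, no other ligand matched this pattern. Looser forms of the motif were not searched.
Cxcl3, chr5:90785851-90786100, plus strand: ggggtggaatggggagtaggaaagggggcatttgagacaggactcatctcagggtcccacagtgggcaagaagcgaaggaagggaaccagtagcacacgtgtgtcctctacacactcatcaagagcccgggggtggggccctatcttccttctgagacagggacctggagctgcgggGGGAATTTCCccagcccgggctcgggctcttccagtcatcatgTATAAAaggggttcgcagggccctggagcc
The motif occurs in 0.356% of all promoters of that length.

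Upstream sequences were found for 37 of the 49 members, and 10 of these were called. All 6 motifs were searched on both strands. The interferon-response motif matched 2 members, Cxcl10 and Cxcl14, and 2.98% of all promoters. The NF-kappaB motif matched Cxcl3 and Ccr3. TTCNNNGAA matched Ccl17, Ccr6 and Cxcl14, and 7.02% of all promoters. The STAT6 motif matched Ccl17 alone, and 5.85% of all promoters. CAAGGTCA, a motif that SF1 is known to bind, matched Ccl27a, which was not called, and 1.33% of all promoters. TATAAA matched 12 members, 4 of them called. Matches to different motifs did not overlap in any member. A match here is a string of letters and does not show that a factor binds. Each motif was searched as a single pattern, so the lack of a match does not show that a site is absent.

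The uncalled members included bright ones. Cxcl12, which stromal cells make and which keeps Cxcr4-bearing cells in place, read 7351, 7460 and 7291 in control and 6653, 6915 and 6819 in SF1. All SF1 arrays were below all controls, yet the difference of -0.12 (95% interval -0.28 to 0.05) was not called on this probe set. On its second probe set, which read 1601 to 1964 in control and 1226 to 1407 in SF1, Cxcl12 fell by 0.43 on the log2 scale (limma adjusted p = 0.023). That was the only fall called on any probe set of a member. Its receptor Cxcr4 read 247 to 338 and 193 to 284 (-0.22, 95% interval -0.58 to 0.14). Cxcl14, a chemokine of epithelium and stroma, read 592 to 732 and 497 to 682 (-0.12, 95% interval -0.42 to 0.17). Its second probe set differed by -0.36 (95% interval -0.67 to -0.04, adjusted p = 0.13) and was not called.

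Of the 4 atypical receptors, limma called 0, and none had an unadjusted p under 0.05 on its brightest probe set. Ackr3, which removes Cxcl12, read 807, 726 and 736 in control and 777, 686 and 687 in SF1 (-0.08, 95% interval -0.27 to 0.12). Ackr1, which binds chemokines on venules, differed by -0.01 (95% interval -0.34 to 0.32). Ackr2, which degrades inflammatory CC chemokines, differed by 0.06, and Ackr4, which removes Ccr7 ligands, by -0.17 (95% interval -0.40 to 0.07). The members not yet given were Ccl24, an eosinophil chemokine, Ccl27a, a skin chemokine, and the gut-homing pair Ccl25 and Ccr9, with differences between -0.09 and 0.11 and no call. Of 18 members with more than 1 probe set, 6 had differences of both signs: Ccr2, Cx3cr1, Cx3cl1, Ackr2, Ccr9 and Ccl25. The other probe sets of Cx3cl1 ranged from -0.19 to -0.03, those of Ackr2 were -0.10 and -0.18, those of Ccr9 ranged from -0.17 to 0.35 and that of Ccl25 was -0.11, with no call among them. On the lowest of Ackr2 the groups did not overlap (95% interval -0.35 to -0.01, adjusted p = 0.15), so no direction is given for these genes.

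Genes around the chemokine system moved in part. Over all genes measured, 8.37% rose and 8.11% fell, and no list here or below was tested against those shares. Of 29 cytokines and factors known to induce chemokines, 8 rose and 0 fell (1 was lower at an unadjusted p under 0.05), with a median of 0.24. Without any 1 array, only 4 or 5 of them rose, and 1 fell without SF1 replicate 2. Ltb, the membrane cytokine of lymphocytes, rose by 1.70 and Irf8, a factor of macrophages and dendritic cells, by 0.79. Ifng, the main inducer of Cxcl9, read 41.6 to 59.5 in control and 51.8 to 57.7 in SF1 (0.07, 95% interval -0.18 to 0.31). These readings are as dim as those of Ccr7, where signal cannot be told from background, so a change in Ifng could be missed. Il1b, an inflammatory cytokine, read 226 to 235 in control and 248, 1239 and 230.2 in SF1, high in replicate 2 like Ccl3. Of 14 genes by which leukocytes adhere to vessels, 3 rose and 1 fell, with a median of 0.33. Vcam1, the endothelial and stromal ligand of integrin alpha 4, rose by 1.63 and Itgal, a leukocyte integrin, by 1.19, while Icam2 of endothelium fell (-0.57).

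Of 24 genes of signalling inside the cell, 4 rose and 1 fell (median 0.07), against 8.37% and 8.11% of all genes. Only 2 rose without control replicate 1 or SF1 replicate 2. Grk5, a receptor kinase, rose by 0.70, Tiam1, an exchange factor for Rac, by 0.58, and the G protein subunit gene Gng2 fell (-0.63). Of 15 genes for release, cleavage and display of chemokines, 0 rose and 3 fell (4 and 3 at an unadjusted p under 0.05, median -0.02), while 2 rose after quantile normalization or median centring. Mmp2, a protease that cleaves chemokines, fell by 0.85 and the heparan sulfate carrier Sdc1 by 0.72 on the log2 scale. Of 16 other chemoattractants and their receptors, 3 rose and 0 fell (median 0.13). Cd74 (0.99), the receptor of Mif, and Gpr183 (0.60), an oxysterol receptor of lymphocytes, were the called ones with the largest differences.

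Pan-leukocyte, macrophage, T cell and mast cell markers rose in part or whole. All 7 pan-leukocyte markers rose, with a median of 1.01 and a summed intensity of 3518 to 4691 in control and 6942 to 11253 in SF1. Cd52 (1.25) and Coro1a (1.13) led them. Of 13 macrophage and monocyte markers, 8 rose and 1 fell (summed 8501 to 12708 and 14749 to 21133), with Aif1 (1.45) and C1qa (1.02) highest and Mertk (-0.53) lower. Of 13 T cell markers, 5 rose and 0 fell (1497 to 1743 and 2213 to 2509), led by Cd3g (2.06) and Cd3d (1.38). The median of the T cell list was 0.24. Cd4 (-0.11), Foxp3 (-0.13) and Cd247 (-0.02) were lower in SF1 without a call, Cd4 without overlap of the groups. Cd8a (0.13) and Cd8b1 (0.29) were not called either. Of 9 mast cell markers, 5 rose and 1 fell, with Cpa3 (1.34), Cma1 (1.24) and Gata2 (-0.47). The sum of the 9 overlapped (5797 to 6100 and 5656 to 6276). Much of that sum was Gata2, which read 3948 to 4051 in control and 2789 to 2994 in SF1. Leaving out SF1 replicate 1 left 3 risen macrophage markers, and leaving out SF1 replicate 2 left 4. For T cell markers, 3 rose when control replicate 1 was dropped, and 3 when either SF1 replicate 1 or replicate 2 was. The 4 genes named here as highest in macrophages and T cells kept their calls in all 6 such fits. No marker of any list read at the table's lowest value of 1 on any array. The part of these cells in the chemokine differences was not tested.

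Few markers of the other leukocytes were called. Of 10 natural killer cell markers, 2 rose, Gzmb (1.38) and Gzma (0.48), and of 9 markers of B and plasma cells 1 rose, Pou2af1 (0.69). The sum of those 9 was 3041 to 5103 in control and 5888 to 7748 in SF1. Their median log2 difference was only 0.0024, with 5 of the 9 above 0, and the largest difference (0.86) was not called. Bright genes weigh most in such a sum. Of 8 dendritic cell markers 1 rose, Zbtb46 (0.72), and of 5 eosinophil markers 1 rose, Siglecf (0.39), and 1 fell, Alox15 (-0.38). The eosinophil markers summed to 672 to 739.9 in control and 572 to 608 in SF1. Most of that sum was Alox15, which read 458 to 560 in control and 367 to 405 in SF1. The 8 neutrophil and 6 lymphatic markers had 0 calls by limma and none at an unadjusted p under 0.05. Of 9 markers of blood vessel endothelium, where Ackr1 is expressed, 8 fell and none rose, most in Cdh5 (-0.83) and Ptprb (-0.77). Of 10 epithelial markers, 4 rose and 1 fell, with Krt7 (1.80), Cdh1 (0.71) and Krt19 (-0.36). Of 10 stromal markers, 6 fell and none rose, most in Twist2 (-1.54) and Hoxa11 (-1.05). The calls of Gzma, Pou2af1, Siglecf, Alox15 and Krt19 were each lost in 3 to 5 of the 6 fits that left out an array (control replicate 1 for all but Alox15, SF1 replicate 2 for all but Krt19), with the highest adjusted p per gene between 0.061 and 0.11. The 8 smooth muscle markers had 0 calls, with 2 higher and 1 lower at an unadjusted p under 0.05.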

How the data were processed

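RNA of 6 pools of uterine horns was measured on an Affymetrix Mouse Genome 430 2.0 array, per the labels. The deposited values are linear intensities of probe sets between 1 and 25324.74. The authors' software for background correction and normalization was not given in the sources used here, and dim values could depend on it. The number of arrays limits the precision, and p-values measure the spread between pools. Of 45101 probe sets, 64 controls were set aside. A platform annotation named 34945 of the 45037 tested ones with 1 symbol, 932 with several and 9160 with none.

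Log2(intensity + 16) was fitted with limma 3.58.1 in R 4.3.3 (lmFit, eBayes), adjusted over all tested probe sets (Benjamini-Hochberg) and called at 0.05; fold changes on this scale understate dim genes. The fit was tested on simulated data. Tables and figures used pandas 2.3.3 and matplotlib 3.10.9 in Python 3.11.15. Promoter sequences are RefSeq's (GRCm38.p6).

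The members and the 19 lists (223 of 240 genes measured, from textbook knowledge) were chosen with earlier results of these data known. Named genes were all called members, partners of called members among the ligand and receptor pairs, the 5 brightest, the 5 largest uncalled differences, and up to 2 called genes per direction from each list. Ifng, Il1b, neutrophil genes, uncalled T cell markers and chromosomal neighbours were added after their values were seen. Alternatives were other scalings, pseudocounts, filters, thresholds and variance models, a replicate block, averaged probe sets and each array left out.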

Additional observations from a re-analysis of the deposited data

How the results depend on the processing

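Under every alternative run, between 11 and 16 members rose; the lowest count, 11, came from an adjusted p under 0.01 and from a fold of at least 1.5, and the highest, 16, from median centring and from calling any probe set of a gene, an alternative chosen after seeing the data. Leaving out each array in turn gave 13 to 14, and 12 of the 15 genes kept their call in all 6 such fits. No member fell, except that 1 did in the latter, through Cxcl12. Over all genes, 780 rose and 499 fell with a fold of at least 1.5, 848 and 710 at an adjusted p under 0.01, and without 1 array 1025 to 1294 rose and 908 to 1118 fell. Of all calls, 50.8% were higher in the deposited scaling and 62.8% after median centring.

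No pairing of the arrays by replicate number was seen: deviations of same-numbered arrays correlated at -0.063, -0.101 and -0.184. With so few arrays this cannot exclude a pairing. With the replicate number as a block, 15 members rose and 0 fell, and 1139 and 932 of all genes did.

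Cxcl9 (adjusted p = 0.067) and Cxcl13 (0.059) lost their calls with trend and robust, and Ccr7 with pseudocounts of 1 (0.051) and 64 (0.057). Among named members, signs turned for uncalled genes: Ccr2 was 0.25 as the mean of its probe sets, and Xcr1 was -0.0036 with a pseudocount of 1. With arrays left out in turn, Ccr3 ranged from -0.093 to 0.084, Cxcr5 from -0.088 to 0.046 and Xcr1 from -0.15 to 0.12. The cause was not tested. Dim probe sets, 19 of the 49 members at or below the median probe set mean of 160.3, limit what can be seen.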
